A study of Mus musculus with 9 samples.

Results

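Integrins are the cell surface receptors by which blood cells hold on to matrix and to other cells. Each is a pair of an alpha and a beta subunit, and the pairing sets the ligand: alpha 4 with beta 1 or beta 7 binds Vcam1 on stroma and vessels, alpha 4 beta 7 also binds Madcam1 of gut vessels, and the beta 2 family of white blood cells binds Icam proteins and complement. In myeloid cells the beta 2 partners alpha L and alpha M are known as surface proteins of maturing cells, and alpha 4, alpha 6 and beta 1 as proteins by which immature cells adhere in the marrow. The subunits described here are 10 genes that were selected by symbol from the 24756 rows of the count table: Itga4, Itga5, Itga6, Itgal, Itgam and Itgax for alpha subunits, and Itgb1, Itgb2, Itgb3 and Itgb7 for beta subunits. The list was chosen from results of these same libraries and records no value or threshold, so all of its values are given as a description, without p-values.

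The cells were a mouse acute myeloid leukaemia line made from foetal liver cells with a pair of retroviral vectors. A vector that is always on makes Luc2 and the leukaemia-driving fusion protein MLL-AF9, and a vector with the TRE-tight promoter makes DsRED and FLT3-ITD, a growth factor receptor that signals without its ligand, while doxycycline is present. There were 3 groups of 3 libraries. ON cells stayed in doxycycline at 1 µg/mL, OFF24 cells had been washed free of it for 24 h and OFF48 cells for 48 h, and the vector for MLL-AF9 was constitutive in all of them. Cells of all groups were grown in culture, away from marrow, vessels and other cells, and the sources used here describe a single cell line. RNA was read by 3' mRNA sequencing, which counts reads at the 3' ends of polyadenylated transcripts.

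Library totals ran from 1329296 counts (OFF48 replicate 2) to 4038456 counts (ON replicate 2). Levels below are read counts scaled by TMM to library size (CPM), and 3 counts, up to which a true level can give a count of 0, correspond to 0.743 CPM in the deepest and 2.26 CPM in the shallowest library (the floor). All 12 markers of the myeloid line were detected, and their summed level ran from 3684 to 3991 CPM in ON, from 5993 to 6412 CPM in OFF24 and from 7940 to 8969 CPM in OFF48. The largest row of the OFF48 libraries was S100a8, a calcium-binding protein of myeloid cells, with 3.08% to 3.57% of their counts. The summed markers of T and NK cells, B cells, dendritic cells, erythroid cells and of hepatocytes, stroma and endothelium stayed at or below 8.46 CPM in every library. The mouse Flt3 row averaged 1.28 ± 0.232 CPM in ON, 1.97 ± 0.899 CPM in OFF24 and 1.87 ± 0.436 CPM in OFF48 (SD, n = 3), and since transcripts of a vector can end in vector sequence it does not check the transgene. The labels do not say whether the libraries within a group stem from separate cultures, and the spread that SDs and p-values measure may therefore be technical. In bulk RNA, fewer cells of a type and less RNA per cell cannot be told apart.

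The subunit genes lie on 6 chromosomes (GRCm38, GENCODE M21), and Itgal (chr7:127296260-127335138), Itgam (chr7:128062640-128118491) and Itgax (chr7:128129547-128150657) are all on the plus strand of chromosome 7. Itgb7 lies at chr15:102215995-102231944 on the minus strand and its partner Itga4 at chr2:79255426-79333123 on the plus strand. The other positions are chr2:71745616-71858416 for Itga6, chr15:103344286-103366763 for Itga5, chr8:128685654-128733200 for Itgb1, chr10:77530252-77565708 for Itgb2 and chr11:104608000-104670476 for Itgb3. The last 400 bases of the longest transcript of each gene matched no other gene at 95% identity over 100 bases. Other ends of these genes were not searched. Near its 3' end Itga4 overlaps Cerkl on the other strand and Itgam overlaps Gm49368 on its own strand, and the counting is not stated to use strand.

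Promoters from 250 bases before to 50 bases after the gene start were found for 6 of the 10 subunits (RefSeq, GRCm38.p6). Shown are Itgb7 and its partner Itga4, whose levels parted at 48 h, and Itgam, whose log2 change at 48 h was like that of Itga4. Capitals mark matches to an ETS-type motif (GAGGAAGT, or ACTTCCTC on the other strand) or a RUNX-type motif (TGTGGT, or ACCACA on the other strand), motifs of factors that act in blood cells. The ETS-type motif stands in 3.2% of 32851 promoters of this length and the RUNX-type motif in 16.8%. A hypoxia-type motif (ACGTG, or CACGT on the other strand), present in 19.6%, was also searched.
Itgb7 (chr15:102231886-102232185, minus strand): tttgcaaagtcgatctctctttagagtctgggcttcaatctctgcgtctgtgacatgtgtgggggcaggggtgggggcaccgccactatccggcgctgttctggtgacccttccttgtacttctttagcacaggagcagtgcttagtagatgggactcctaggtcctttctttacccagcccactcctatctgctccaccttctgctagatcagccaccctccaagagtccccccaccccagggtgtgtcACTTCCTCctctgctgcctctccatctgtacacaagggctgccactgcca
Itga4 (chr2:79255176-79255475, plus strand): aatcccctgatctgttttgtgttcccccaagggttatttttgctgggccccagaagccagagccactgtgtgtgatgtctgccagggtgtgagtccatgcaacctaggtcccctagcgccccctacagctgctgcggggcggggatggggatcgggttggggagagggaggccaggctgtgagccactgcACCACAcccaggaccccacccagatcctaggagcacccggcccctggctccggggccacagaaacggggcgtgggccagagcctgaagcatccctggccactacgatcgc
Itgam (chr7:128062390-128062689, plus strand): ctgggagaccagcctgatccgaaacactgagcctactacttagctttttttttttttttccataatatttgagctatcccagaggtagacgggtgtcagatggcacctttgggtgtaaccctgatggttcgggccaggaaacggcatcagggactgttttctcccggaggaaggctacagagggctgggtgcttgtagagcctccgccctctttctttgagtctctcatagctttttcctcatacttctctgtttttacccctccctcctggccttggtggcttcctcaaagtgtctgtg

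The Itgb7 promoter held the ETS-type letters at bases 251 to 258 on the other strand, at the annotated start. The Itga4 promoter held the RUNX-type letters at bases 191 to 196 on the other strand. The Itgam promoter held none of the 3 motifs. Of the others, Itgax held the RUNX-type letters at bases 264 to 269, and Itga5 and Itgb1 held none of the 3. These matches are letters in a window, not sites.

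Beta 7 was the subunit with the widest swing: its level was 2.18-fold higher in OFF24 than in ON and 7.31-fold lower in OFF48 than in ON. Itgb7 encodes the beta partner of alpha 4 and alpha E in receptors of gut-homing lymphocytes and of mast cell precursors. It had 14.3, 13.3 and 9.66 CPM in ON, 25.5, 32.6 and 24.1 CPM in OFF24, and 1.34, 3.00 and 1.46 CPM in OFF48. Every OFF24 library lay above every ON library and every OFF48 library below, and no groups overlapped. The log2 fold change was 1.12 ± 0.20 (SE) for OFF24 over ON, -2.87 ± 0.34 for OFF48 over ON and -3.99 ± 0.31 for OFF48 over OFF24. The level at 48 h rests on 4, 4 and 5 counts, close to the floor in each library, so the size of the drop is loosely set and its SE is approximate.

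Markers of mast cells and basophils, which also use beta 7 integrins, summed to 4.85 to 8.84 CPM in ON, 15.8 to 21.0 CPM in OFF24 and 7.50 to 12.8 CPM in OFF48. Nearly all of it was Mcpt8, a protease of basophils, and 6 of the 8 listed markers (Cpa3, Fcer1a, Tpsb2, Tpsab1, Prss34 and Cma1) were at 0 in every library. The part of these cells in the Itgb7 values was not tested.

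Alpha 4 moved apart from beta 7 at 48 h. Itga4, the alpha subunit of VLA-4 (with beta 1) and of the gut-homing receptor (with beta 7), had 7.91, 11.1 and 11.1 CPM in ON, 13.8, 19.5 and 15.5 CPM in OFF24, and 20.5, 33.0 and 23.3 CPM in OFF48. The groups lay in the order ON, OFF24, OFF48 with no overlap between neighbours. Its log2 fold change was 0.72 ± 0.23 (SE) for OFF24 over ON, 1.30 ± 0.22 for OFF48 over ON and 0.58 ± 0.21 for OFF48 over OFF24, of which the last was not called. OFF48 replicate 2, the shallowest library, was the highest.

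**Figure D1:**
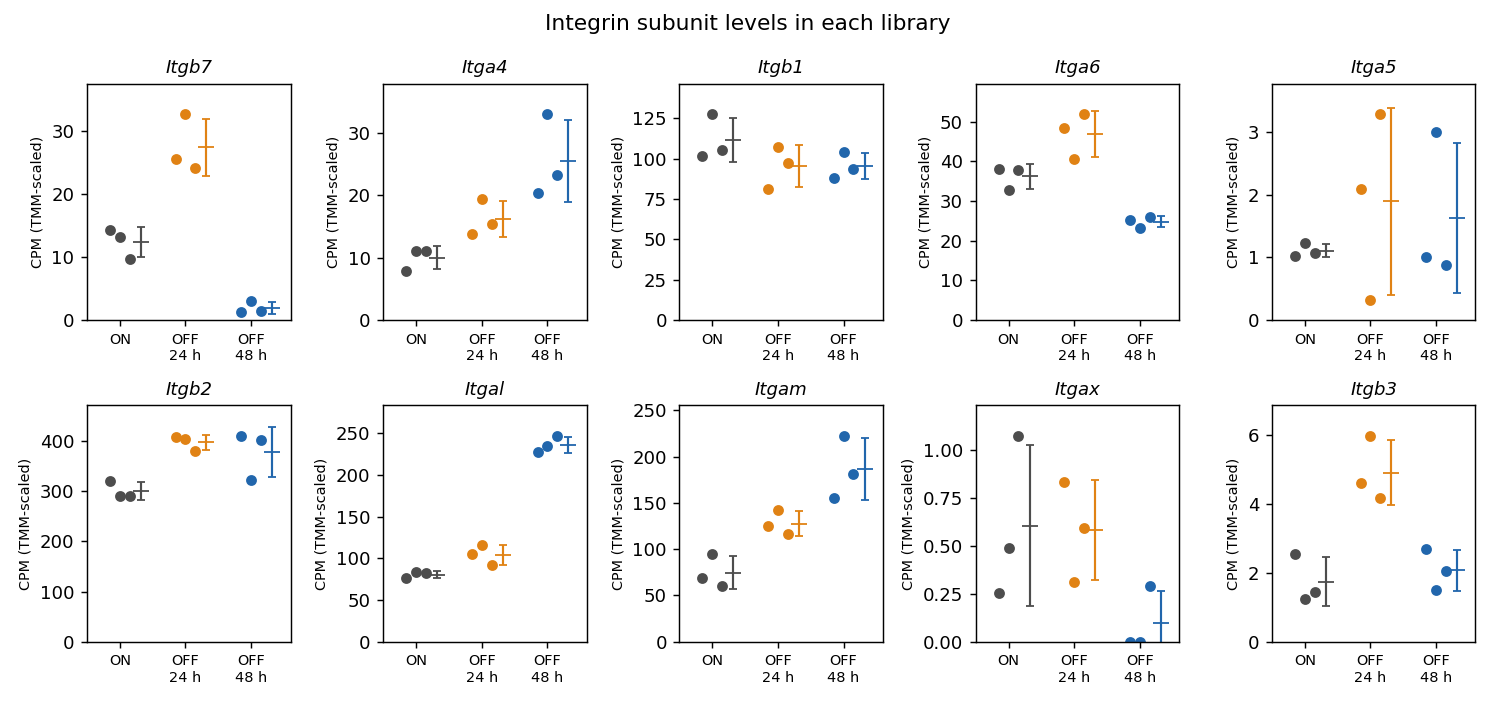
Level of each listed subunit in each library, in TMM-scaled CPM (linear axes from 0, each panel with its own scale). Points are libraries, with the mean and SD of 3 libraries beside them (the lower bar of Itgax in OFF48 is clipped at 0); Itgb7 is highest in OFF24 and lowest in OFF48, while Itga4, Itgal and Itgam are highest in OFF48.

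Of the 8 listed subunits that were tested, beta 1 had the smallest log2 fold changes against ON. Itgb1, the shared partner of most alpha subunits for matrix and Vcam1, had 102, 128 and 106 CPM in ON, 81.5, 107 and 97.4 CPM in OFF24, and 88.2, 104 and 93.6 CPM in OFF48. The groups overlapped in each comparison. Its log2 fold change was -0.22 ± 0.12 (SE) for OFF24 over ON, -0.24 ± 0.13 for OFF48 over ON and -0.02 ± 0.13 for OFF48 over OFF24, none of them called.

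Alpha 6 went the way of beta 7 in direction but over a much smaller range. Itga6 encodes the alpha subunit of laminin receptors, with beta 1 in blood cells. Its level was 38.0, 32.7 and 37.9 CPM in ON, 48.5, 40.5 and 51.8 CPM in OFF24, and 25.2, 23.3 and 25.95 CPM in OFF48. All OFF24 libraries lay above and all OFF48 libraries below the ON libraries. Its log2 fold change was 0.38 ± 0.13 (SE) for OFF24 over ON, -0.53 ± 0.15 for OFF48 over ON and -0.90 ± 0.15 for OFF48 over OFF24. The call at 24 h was lost under DESeq2, without the filter on low counts, and without any of 6 single libraries (all of ON, OFF24 replicates 1 and 3, OFF48 replicate 1).

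Alpha 5, the fibronectin receptor's alpha subunit, was near the floor and did not pass the filter on low counts. Itga5 had 4, 5 and 3 counts in ON, 5, 1 and 11 counts in OFF24, and 3, 4 and 3 counts in OFF48. These groups overlap, and no fold change is given.

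Of the beta 2 family, Itgb2, Itgal and Itgam lay above every ON library in every OFF24 and OFF48 library, and at 48 h both alpha subunits differed from ON by more than beta 2 did. Itgb2, the beta subunit shared by LFA-1, Mac-1 and the alpha X receptor, had 321, 290.3 and 291 CPM in ON, 408, 404 and 381 CPM in OFF24, and 409.6, 322 and 403 CPM in OFF48. All OFF24 and OFF48 libraries lay above the ON libraries, though OFF48 replicate 2 lay just above the highest of them. The log2 fold change was 0.40 ± 0.11 (SE) for OFF24 over ON, 0.34 ± 0.11 for OFF48 over ON and -0.07 ± 0.11 for OFF48 over OFF24. The call at 48 h was lost without ON replicate 3 or without OFF48 replicate 1.

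Alpha L showed its larger step between 24 h and 48 h. Itgal, the alpha subunit of LFA-1, which binds Icam proteins, had 76.3, 83.3 and 82.3 CPM in ON, 105, 116 and 92.0 CPM in OFF24, and 228, 235 and 246 CPM in OFF48. No groups overlapped, and the gap between OFF48 and OFF24 was wider than that between OFF24 and ON. Its log2 fold change was 0.37 ± 0.11 (SE) for OFF24 over ON, 1.55 ± 0.11 for OFF48 over ON and 1.18 ± 0.11 for OFF48 over OFF24. The call at 24 h was lost without ON replicate 1 or OFF24 replicate 2, as it was for Itga4.

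Alpha M, which forms Mac-1 (CD11b) and is a surface marker of granulocytes and monocytes, had Itgam levels of 68.6, 94.3 and 60.5 CPM in ON, 125, 142 and 116 CPM in OFF24, and 155, 222 and 182 CPM in OFF48. Its groups did not overlap and lay in the order ON, OFF24, OFF48. Log2 fold changes were 0.77 ± 0.16 (SE) for OFF24 over ON, 1.30 ± 0.16 for OFF48 over ON and 0.53 ± 0.15 for OFF48 over OFF24. The call of OFF48 against OFF24 was lost without OFF24 replicate 1 or OFF24 replicate 3. The summed myeloid markers given above lay in the same order of groups. Of the 12, Spi1, Cebpe, Mpo, Elane, Prtn3, Csf3r and Ly6c2 averaged in that order, while Ptprc, Cebpa, Ctsg, Csf1r and Fcgr3 averaged highest in OFF24. Their part in the beta 2 family's values was not tested.

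Alpha X, a marker of dendritic cells and some macrophages, was hardly present. Itgax had 1, 2 and 3 counts in ON, 2, 1 and 2 counts in OFF24, and 0, 0 and 1 count in OFF48, all at or below the floor of 3 counts, and was not tested.

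Beta 3 was low and higher in OFF24. Itgb3, the beta subunit of the platelet fibrinogen receptor and of the vitronectin receptor, had 2.55, 1.23 and 1.43 CPM in ON, 4.599, 5.96 and 4.17 CPM in OFF24, and 2.68, 1.5 and 2.04 CPM in OFF48. Every OFF24 library lay above all others, and ON and OFF48 overlapped. Log2 fold changes were 1.46 ± 0.40 (SE) for OFF24 over ON, 0.31 ± 0.49 for OFF48 over ON and -1.16 ± 0.42 for OFF48 over OFF24. Its counts ran from 2 to 19 per library, and it passed the filter on low counts only through OFF24, the group where it was high, so a call of a difference from OFF24 shows nothing further.

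Megakaryocyte and platelet markers, cells known for Itgb3, summed to 59.0 to 75.2 CPM in ON, 43.1 to 52.1 CPM in OFF24 and 71.5 to 88.5 CPM in OFF48. Nearly all was Gp1bb, the rest of the list summed to 0.737 to 4.36 CPM, and Ppbp and Gp1ba were at 0 in every library. Gp1bb averaged 63.0 ± 9.90 CPM in ON, 45.6 ± 4.26 CPM in OFF24 and 77.2 ± 9.33 CPM in OFF48 (SD, n = 3). The part of these cells in the Itgb3 values was not tested.

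Over the list, 8 of the 10 subunits passed the filter on low counts and were among the 10215 genes tested with edgeR (Benjamini-Hochberg adjusted p under 0.05). In OFF24 against ON, 7 of the 8 were called higher and 0 lower, the exception being Itgb1. Itgb3, among the 7, passed the filter only through the group where it was high. Of all tested genes, 17.8% were called higher and 17.4% lower (35.3% in either direction). The median log2 fold change of the 8 subunits was 0.56, and that of all tested genes 0.03. The count was 4 without ON replicate 1, which lost Itga4, Itga6 and Itgal, and 4 without OFF24 replicate 2, which lost Itga4, Itgal and Itgb3.

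In OFF48 against ON, 4 of the 8 tested subunits were called higher (Itga4, Itgal, Itgam and Itgb2) and 2 lower (Itga6 and Itgb7). Among all tested genes 23.4% were called higher and 23.9% lower (47.4% in either direction). The median log2 fold change was 0.32, against 0.01 for all tested genes. Set apart, the 4 tested alpha subunits had a median of 1.30 and the 4 beta subunits a median of 0.03. These medians stand over wide ranges, from -0.53 (Itga6) to 1.55 (Itgal) for alpha and from -2.87 (Itgb7) to 0.34 (Itgb2) for beta.

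In OFF48 against OFF24, 2 of the 8 were called higher (Itgal and Itgam) and 2 lower (Itga6 and Itgb7), where 9.99% of all tested genes were called higher and 11.2% lower (21.1% in either direction). The median was -0.04, against 0.00 for all tested genes. These comparisons share libraries, and the list was chosen with all of them known, so nothing is read from the counts.

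**Figure D2:**
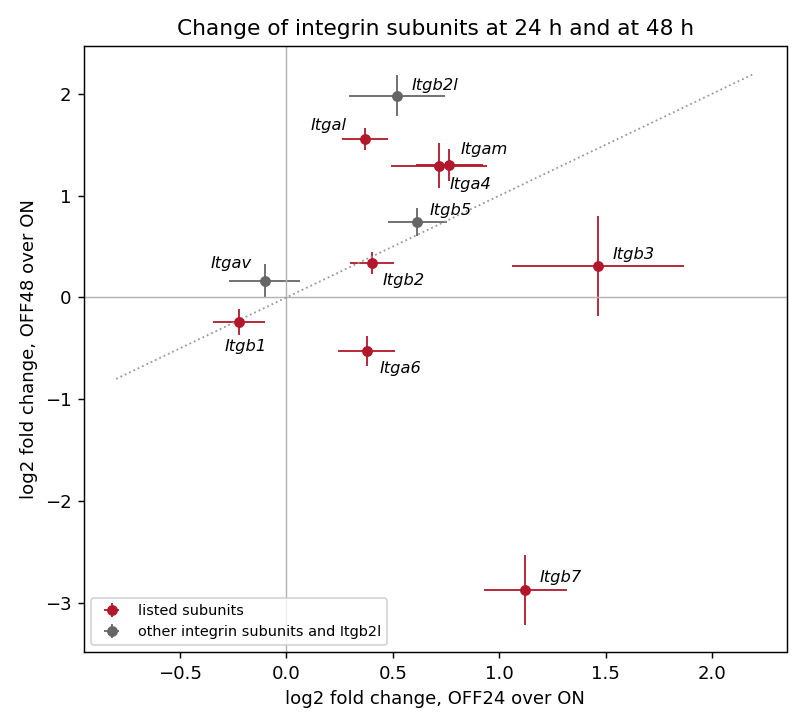
Log2 fold change of each tested integrin subunit for OFF24 over ON (horizontal axis) and OFF48 over ON (vertical axis), with bars of 1 SE from edgeR; the dotted line marks equal change and both axes share the ON libraries. Listed subunits are red, Itgav, Itgb5 and Itgb2l grey; Itgb7 stands alone at 1.12 and -2.87, while Itgal, Itga4, Itgam and Itgb2l lie above the dotted line.

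Partner ratios set the counts of an alpha subunit against those of its beta partner within the same library, on a log2 scale with 0.5 added to each count. Because 3' counts do not give the number of subunits made, only the change of a ratio between groups is read. Itga4 to Itgb7 parted most. The ON libraries had 31, 45 and 31 counts of Itga4 beside 56, 54 and 27 of Itgb7, the OFF24 libraries 33, 62 and 52 beside 61, 104 and 81, and the OFF48 libraries 61, 44 and 80 beside 4, 4 and 5 (replicates 1, 2 and 3). The mean log2 ratio was -0.30 ± 0.52 in ON, -0.75 ± 0.12 in OFF24 and 3.65 ± 0.30 in OFF48 (SD, n = 3). The ratio was 15.5-fold higher in OFF48 than in ON, with no overlap. Its size is loosely set, since Itgb7 in OFF48 rests on 4, 4 and 5 counts, close to the floor. On the log2 scale it was 3.95, and 3.59 with 2 counts added in place of 0.5. ON and OFF24 overlapped.

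Against its other partner, alpha 4 shifted less at 48 h and more at 24 h, where the log2 ratio of OFF24 over ON was -0.45 for Itga4 to Itgb7 and 0.92 for Itga4 to Itgb1. Itga4 to Itgb1 had a mean log2 ratio of -3.47 ± 0.22 in ON, -2.55 ± 0.09 in OFF24 and -1.92 ± 0.24 in OFF48 (SD, n = 3). The groups did not overlap, and the ratio was 1.90-fold higher in OFF24 than in ON and 2.94-fold higher in OFF48 than in ON. Itga6 to Itgb1 went the other way after 24 h, with -1.62 ± 0.30 in ON, -1.02 ± 0.34 in OFF24 and -1.93 ± 0.19 in OFF48. OFF24 lay above both other groups, though its replicate 2 (-1.40) lay just above ON replicate 1 (-1.42). ON and OFF48 overlapped.

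Within the beta 2 family both alpha subunits gained on beta 2 at 48 h. Itgal to Itgb2 had a mean log2 ratio of -1.90 ± 0.15 in ON, -1.94 ± 0.12 in OFF24 and -0.67 ± 0.20 in OFF48 (SD, n = 3). ON and OFF24 overlapped and OFF48 lay 2.34-fold above ON. Itgam to Itgb2 had -2.04 ± 0.36 in ON, -1.64 ± 0.12 in OFF24 and -1.03 ± 0.44 in OFF48, with OFF48 2.01-fold above ON and ON and OFF24 overlapping. Itgav to Itgb3, the vitronectin receptor pair, had 3.81 ± 0.50 in ON, 2.25 ± 0.20 in OFF24 and 3.66 ± 0.55 in OFF48, and OFF24 lay below both other groups. Itgb3 had 2 to 19 counts per library and passed the filter only through OFF24, where it was high. The lower ratio in OFF24 therefore shows nothing further. Pairs with a partner that did not pass the filter (Itga5 with Itgb1, Itgax with Itgb2, Itga2b with Itgb3, Itgae with Itgb7) have no ratio here.

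**Figure D3:**
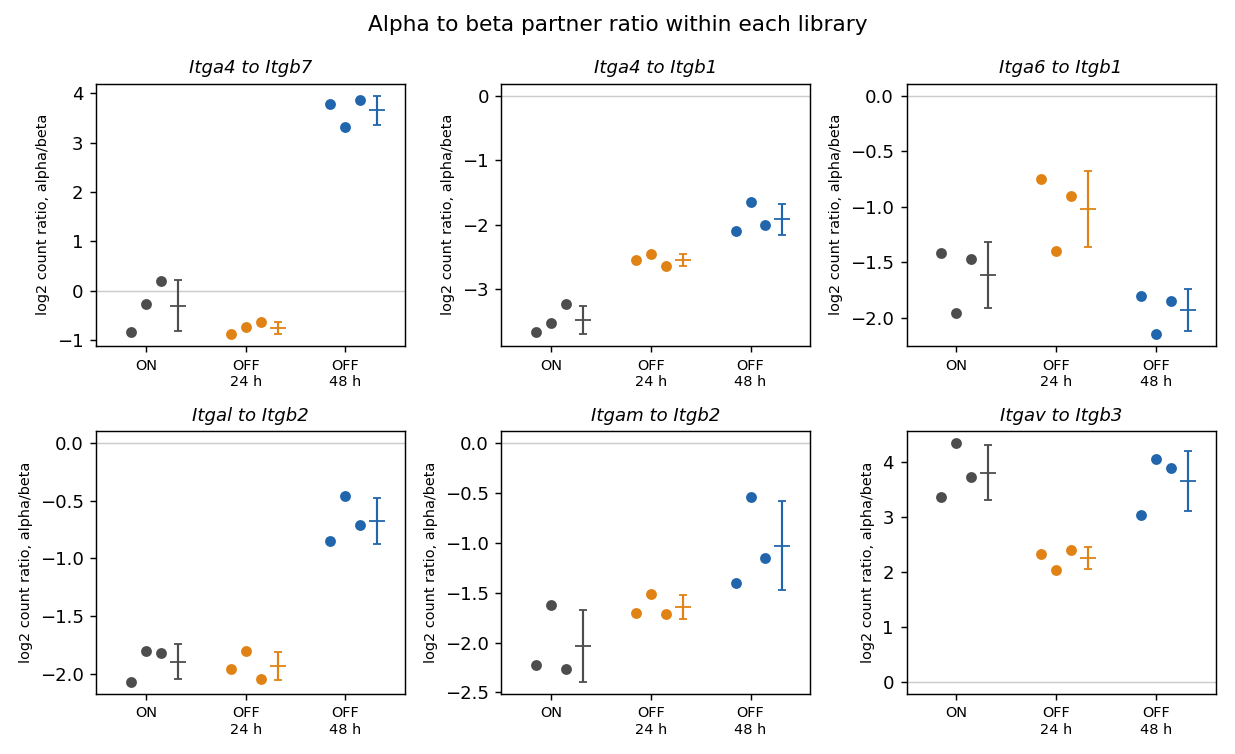
Log2 ratio of the counts of an alpha subunit to those of its beta partner within each library, for 6 pairs (each panel with its own scale). Points are libraries, with the mean and SD of 3 libraries beside them; Itga4 to Itgb7 is near or below 0 in ON and OFF24 and above 3 in OFF48.

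Outside the list, 2 of the 16 other integrin subunits passed the filter on low counts. Itgb5, a beta partner of alpha V for vitronectin, had 32.9, 41.3 and 36.9 CPM in ON, 48.9, 66.6 and 53.9 CPM in OFF24, and 59.4, 59.2 and 66.2 CPM in OFF48. It rose by a log2 fold change of 0.61 ± 0.14 (SE) in OFF24 against ON (edgeR adjusted p = 0.00202) and by 0.74 ± 0.14 in OFF48 against ON (edgeR adjusted p = 0.000238), and both OFF groups lay above all ON libraries. OFF48 and OFF24 overlapped (log2 0.13 ± 0.14, edgeR adjusted p = 0.551). Itgav, the shared alpha subunit of the vitronectin receptors, had 27.3, 27.3 and 21.1 CPM in ON, 23.8, 24.8 and 22.6 CPM in OFF24, and 23.1, 30.7 and 32.4 CPM in OFF48. Its groups overlapped, with a log2 fold change of -0.10 ± 0.17 in OFF24 (edgeR adjusted p = 0.669) and 0.17 ± 0.17 in OFF48 (edgeR adjusted p = 0.438), both against ON. Itga3, Itga8, Itga9 and Itgb6 were at 0 in every library.

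Itgb2l, a gene named for its likeness to beta 2, was added after its values were seen. It had 8.67, 8.35 and 8.95 CPM in ON, 15.9, 9.73 and 12.2 CPM in OFF24, and 28.9, 39.7 and 35.9 CPM in OFF48. Every OFF48 library lay above every other library. The log2 fold change was 1.98 ± 0.20 (SE) in OFF48 against ON (edgeR adjusted p = 1.47e-07), 1.46 ± 0.20 in OFF48 against OFF24 (edgeR adjusted p = 2.2e-05) and 0.52 ± 0.23 in OFF24 against ON (edgeR adjusted p = 0.0820). Its 3' end overlaps Igsf5 on the other strand.

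Proteins under the heading of integrin activation and tail binding, with the surface protein Cd47 among them, made up a list of 19, of which 15 were tested. The shares of all tested genes called, against which this and the next lists are set, were 17.8% higher and 17.4% lower in OFF24 against ON, 23.4% and 23.9% in OFF48 against ON, and 9.99% and 11.2% in OFF48 against OFF24. In OFF24 against ON 4 rose and 1 fell, in OFF48 against ON 9 rose and 1 fell, and in OFF48 against OFF24 4 rose and 1 fell. Their median log2 fold change in OFF48 against ON was 0.39, against 0.01 for all tested genes. In this and the next lists, up to 4 genes with the smallest p in OFF48 against ON are named. Their values in that comparison do not stand for the list, and their p-values there add no support. Rasgrp2, the exchange factor that loads Rap1, averaged 391 ± 81.4 CPM in OFF48 and 199.6 ± 19.2 CPM in ON (SD, n = 3), a log2 fold change of 0.98 ± 0.13 (SE, edgeR adjusted p = 6.5e-06). Apbb1ip (RIAM), which links Rap1 to talin, averaged 199.2 ± 7.63 CPM in OFF48 and 116 ± 18.7 CPM in ON (log2 0.77 ± 0.11, edgeR adjusted p = 1.63e-05).

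Cd47, a surface protein that associates with integrins, averaged 962 ± 101 CPM in OFF48 and 542 ± 29.95 CPM in ON (log2 0.83 ± 0.10, edgeR adjusted p = 1.27e-06). Tln2, the talin form that is not the main one of blood cells, went the other way, with 2.16 ± 0.586 CPM in OFF48 and 9.06 ± 0.623 CPM in ON (log2 -1.95 ± 0.32, edgeR adjusted p = 5.87e-05). The 9 that rose in OFF48 included Tln1, the talin of blood cells (log2 0.35 ± 0.11, edgeR adjusted p = 0.0151), and Fermt3, the kindlin of blood cells (log2 0.45 ± 0.12, edgeR adjusted p = 0.00483); both were singled out after their values were seen.

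Of 9 tested genes (10 listed) under the heading of restraint, 3 rose and 3 fell in OFF24 against ON, 3 rose and 3 fell in OFF48 against ON, and 2 rose and 0 fell in OFF48 against OFF24. Their median in OFF48 against ON was 0.19. Flna, filamin A, which competes with talin for beta tails, averaged 618 ± 71.8 CPM in OFF48 and 322 ± 54.8 CPM in ON (log2 0.93 ± 0.12, SE, edgeR adjusted p = 3.98e-06). Sipa1, which turns Rap1 off, averaged 132 ± 18.1 CPM in OFF48 and 70.9 ± 11.01 CPM in ON (log2 0.92 ± 0.13, edgeR adjusted p = 7.52e-06). Stk4 (Mst1) is better known for promoting LFA-1 adhesion downstream of Rap1 than for restraint, and rose with a log2 fold change of 0.77 ± 0.11 (edgeR adjusted p = 8.37e-06). Cytip, which holds back the beta 2 activator cytohesin-1, fell by 0.73 ± 0.15 on the log2 scale (edgeR adjusted p = 0.000694).

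The adhesion complex and the kinases that signal from bound integrins made up a list of 26, with 18 tested. In OFF24 against ON 4 rose and 0 fell, in OFF48 against ON 12 rose and 0 fell, and in OFF48 against OFF24 9 rose and 1 fell. At 24 h the 4 of 18 are near the 17.8% called higher among all tested genes. The median log2 fold change in OFF48 against ON was 0.59. Zyx, zyxin of actin-bound adhesions, averaged 80.3 ± 15.8 CPM in OFF48 and 27.9 ± 2.80 CPM in ON (log2 1.49 ± 0.15, SE, edgeR adjusted p = 1.27e-07).

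Syk, which carries beta 2 and beta 3 signals, averaged 116 ± 7.74 CPM in OFF48 and 58.8 ± 5.42 CPM in ON (log2 0.99 ± 0.12, edgeR adjusted p = 2.38e-06). Ptk2b (Pyk2), a kinase of the focal adhesion kinase family common in blood cells, averaged 59.6 ± 15.3 CPM in OFF48 and 28.7 ± 2.82 CPM in ON (log2 0.99 ± 0.16, edgeR adjusted p = 3.92e-05). At 24 h the Syk call (log2 0.33 ± 0.13, edgeR adjusted p = 0.0486) was lost under 13 of 18 alternatives.

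Ligands and counter-receptors held both large rises and large falls: of 30 listed and 10 tested, 3 rose and 3 fell in OFF24 against ON, 3 rose and 4 fell in OFF48 against ON, and 4 rose and 4 fell in OFF48 against OFF24. The median in OFF48 against ON was -0.11. Vcam1, the ligand of alpha 4 integrins, averaged 38.0 ± 7.84 CPM in OFF48 and 5.88 ± 1.37 CPM in ON (log2 2.66 ± 0.24, SE, edgeR adjusted p = 3.1e-08). C3, whose cleaved form is bound by Mac-1, averaged 865 ± 26.6 CPM in OFF48 and 211 ± 10.1 CPM in ON (log2 2.04 ± 0.09, edgeR adjusted p = 3.76e-12).

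Cdh1, E-cadherin, the ligand of alpha E beta 7, fell to 1.11 ± 0.782 CPM in OFF48, against 22.6 ± 1.91 CPM in ON (log2 -4.24 ± 0.32, edgeR adjusted p = 3.3e-09), on 1 to 6 counts per OFF48 library. Spp1, osteopontin, a ligand of alpha V and alpha 4 integrins, fell to 8.95 ± 1.26 CPM in OFF48, against 46.9 ± 6.29 CPM in ON (log2 -2.34 ± 0.19, edgeR adjusted p = 6.7e-09). Madcam1 was at 0 in every library and Itgae, the alpha E partner, had 3 counts over all 9. These 4 lists, like the subunits, were drawn up with earlier results of these data known. Without OFF24 replicate 3 their calls in OFF24 against ON, together with those of the other subunits, were 13 in place of 22.

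**Figure D4:**
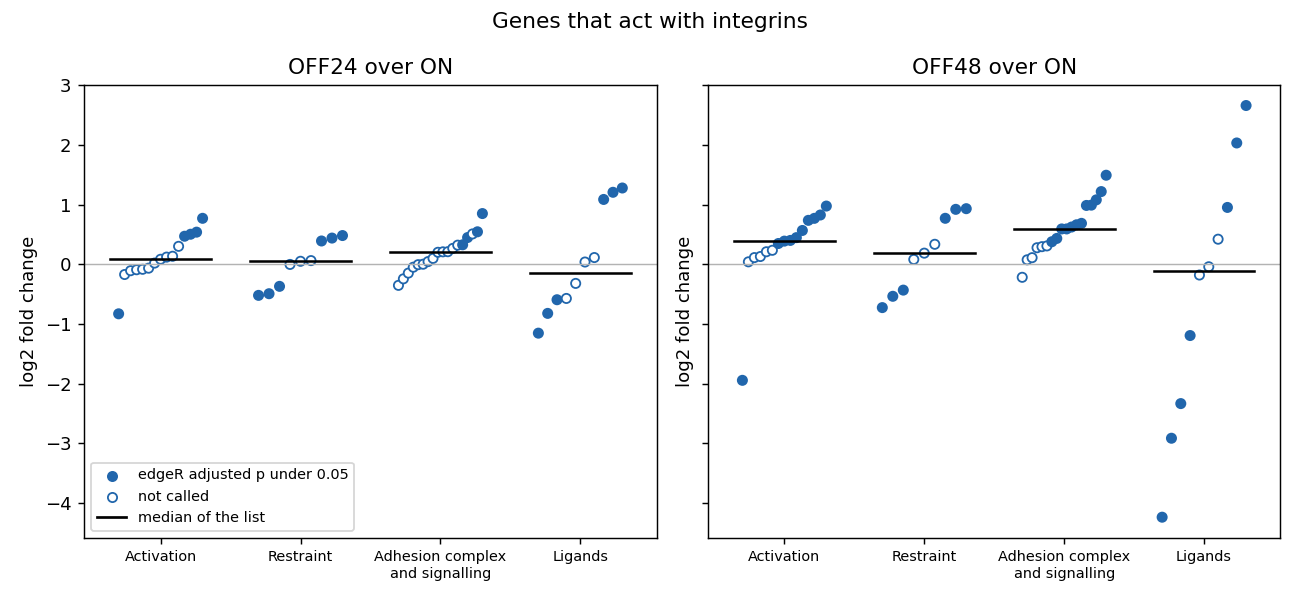
Log2 fold change of each tested gene of 4 lists of proteins that act with integrins, for OFF24 over ON (left) and OFF48 over ON (right). Filled points have an edgeR adjusted p under 0.05, open points do not, and lines mark the median of each list; in OFF48 the adhesion complex has 12 filled points above 0 and 0 below, while ligands reach from -4.24 to 2.66.

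Genes whose pair of log2 fold changes (OFF24 over ON, OFF48 over ON) lay nearest to those of a subunit were found among tested genes with a mean of at least 20 CPM, by the distance between the pairs. The measure rests on 3 group means and both comparisons share the ON libraries. Nearest to Itgb7 of 6063 genes were Egln3, an oxygen-dependent prolyl hydroxylase (1.27 and -2.46, distance 0.44), Aldoc, a glycolytic aldolase (0.64 and -2.30, distance 0.751), and Bnip3, a mitochondrial protein of mitophagy (1.16 and -2.12, distance 0.751). Each of them averaged its highest level in OFF24 and its lowest in OFF48, an order that the search itself fixes. Egln3 was at 57.1 ± 17.7 CPM in ON, 139 ± 0.943 CPM in OFF24 and 10.5 ± 0.0562 CPM in OFF48 (SD, n = 3). The nearest distances were larger for Itgb7 than for the 3 other subunits searched, whose changes against ON were smaller. Itgb7 in OFF48 rests on 4, 4 and 5 counts (SE 0.34 for OFF48 over ON), so nothing is read from this.

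For Itga4 the nearest were Snrk, Rassf2 and Aatk, at distances of 0.0246 to 0.0321. For Itgb2 they were Hnrnph3, Rnf149 and Macf1 (distances 0.00989 to 0.0191), and for Itgb1 Scamp1, Slc38a10 and Mrpl46 (distances 0.0144 to 0.0182, among 6062 genes each).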

How the data were processed

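The 9 libraries, 3 per group, were grouped and numbered by their titles. DNase-treated total RNA (TriZol lysis, Zymogen kit) went into Lexogen QuantSeq 3' libraries, per the labels' protocols. The aligner HISAT2 2.0.4, featureCounts of Subread 1.5.0-p3, cutadapt 1.5, limma 3.42.2 and the build mm10 are named in the submitters' processing notes. Not given in the sources used here are annotation, strand setting and handling of multi-mapped reads. The authors deposited whole-number read counts per gene symbol, not normalised (24756 rows), which were analysed as deposited. They also deposited log2 values normalised by voom (10552 rows), used only as an alternative.

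The main test was edgeR 4.0.16 (R 4.3.3) on these counts: filterByExpr by group (10215 genes left), TMM scaling, a robust quasi-likelihood fit with 1 mean per group over all 9 libraries (6 residual degrees of freedom, common biological coefficient of variation 0.105), and Benjamini-Hochberg adjustment over all tested genes at 0.05. The SE is the log2 fold change divided by the square root of the F statistic. The code was tested on simulated data. Alternatives were other scalings, no filter, DESeq2 1.42.0, limma-voom (limma 3.58.1), the deposited log2 values, 2-group fits, a replicate block, each library left out, and 2 counts added to ratios. Floors cover counting error only.

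The subunits and gene lists were chosen with earlier results of these data known. Named are all 10 subunits, other subunits that passed the filter, up to 4 genes per list with the smallest p in OFF48 against ON, and the 3 genes of at least 20 CPM nearest to each of Itgb7, Itgb2, Itgb1 and Itga4. An item that this rule names in the adhesion complex list is not reported here. Promoters came from RefSeq and positions from GENCODE M21; gene ends there can differ from those used for counting.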

Additional observations from a re-analysis of the deposited data

Results flagged for a closer look

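For 2 subunits every OFF24 library lay above and every OFF48 library below all ON libraries, so that the changes against ON had opposite directions at 24 h and 48 h. The log2 fold change of OFF48 over OFF24 was -3.99 for Itgb7 and -0.90 for Itga6. Both were called in that comparison, but the list was chosen with it known, so these values are a description.

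For the following genes outside the list, the change against ON differed between 48 h and 24 h by edgeR's test of OFF48 against OFF24. Apbb1ip, Stk4, Cytip, Itgb5 and Itgav did not pass it, while 21.1% of all tested genes did. Stk4 passed with library size scaling (edgeR adjusted p = 0.047) and with the replicate block (0.0317). It also passed without ON replicate 2 (0.0369) or OFF48 replicate 3 (0.0276). Itgb2l was added after its values were seen. Apart from Itgb2l, Itgb5 and Itgav, all were named for the smallest p of their list in OFF48 against ON. That comparison shares the OFF48 libraries, so passing here is no separate support. The log2 difference was 1.46 for Itgb2l, 1.46 for Vcam1, 0.95 for C3, -3.09 for Cdh1 and -2.37 for Spp1. In the adhesion complex it was 0.95 for Zyx, 0.67 for Ptk2b and 0.66 for Syk. In the lists of activation and restraint it was 0.88 for Flna, 0.53 for Sipa1, 0.47 for Rasgrp2, 0.36 for Cd47 and -1.12 for Tln2. The call for Rasgrp2 was lost without OFF24 replicate 1 (edgeR adjusted p = 0.0508), OFF24 replicate 2 (0.0691) or OFF48 replicate 1 (0.0965). The call for Tln2 was lost under DESeq2 (adjusted p = 0.115) and under 7 other alternatives, and rests on 2 to 17 counts per library at 24 h and 48 h.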

How the results depend on the processing

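Over all alternatives, 429 of 431 log2 fold changes of the subunits moved by less than the spread between replicates (1 SD), and none that was called changed sign. Both exceptions were Itgb3 without ON replicate 1, with a log2 fold change of 1.86 (OFF24 over ON) and 0.72 (OFF48 over ON). Leaving out 1 of 3 libraries can hardly move a group mean by 1 SD, so the tally says little about those alternatives. No subunit changed sign under another scaling, and no scaling moved the median of all genes by more than 0.0413. Leaving out single libraries, 4 to 7 of the tested subunits were called in OFF24 against ON, and 13 to 22 of the other subunits and listed partners. With 2 counts added, the Itga4 to Itgb7 log2 ratio of OFF48 over OFF24 was 4.03 in place of 4.40. The replicate numbers were not taken to pair the samples, since not every same-numbered pair of libraries had a correlation of deviations over 0.1. It ran from 0.172 to 0.569 for numbers 1 and 2, from -0.124 to 0.176 for number 3, and from -0.425 to 0.343 between different numbers, and 3 of 9 libraries were closest to their own number in both other groups. With the replicate block, 4200 genes were called in OFF24 against ON (3603 without), 5189 in OFF48 against ON (4841) and 2701 in OFF48 against OFF24 (2160), and Itga4 was called in OFF48 against OFF24. That call was also gained without the filter on low counts and without ON replicate 1, ON replicate 2, OFF24 replicate 2 or OFF48 replicate 1. Depth limits Itgb7 and Cdh1 in OFF48, Itgb3, Itga5 and Itgax, which have few counts.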
